A study of Mus musculus with 64 samples.

Results

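Meis1, Meis2, Irx3 and Irx5 were followed through mouse inner ear development as every probe set annotated to these 4 genes, 1 for each gene and 4 of 22626 in all (Meis1 1450992_a_at, Meis2 1417129_a_at, Irx3 1418517_at, Irx5 1421072_at). Across the 32 tissue and stage groups the genes fell into opposed patterns. Meis2 was high in the vestibular primordium and in the pool of utricle and ampullae and low in the cochlea and the saccule, while Irx3 and Irx5 were high in the cochlea and low in all vestibular organs from E12.5. Meis1 lay at or near the lowest recordable signal in the saccule, was high in the utricle with ampullae, and rose in the cochlea between E12.5 and E15.

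All 4 encode transcription factors of the TALE class, whose homeodomain carries extra residues in the loop between the first and second helices. Meis proteins bind DNA with partners of the Pbx and Hox families and are known as genes that respond to retinoic acid and that pattern the proximal limb, the hindbrain and the eye. Iroquois (Irx) proteins pattern the neural tube, the heart and the limb, and their genes lie in clusters whose neighbours are often expressed together.

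The study dissected inner ears from CBA/J mouse embryos at steps of 0.5 days from E9 to E15. This is an inbred strain, and no group had an engineered allele or an experimental treatment. Dispase was applied to the tissues for 8 to 10 minutes up to E10.5 and for 20 to 25 minutes from E11. Each of the 64 arrays carried RNA from 1 pool of tissues, and each group had 2 pools from different litters. Whole inner ear was taken at E9 (otic placode) and at E9.5 and E10 (otic vesicle), and the cochlear and the vestibular primordium were taken apart at E10.5, E11, E11.5 and E12. In the 6 stages from E12.5 onwards, cochlea and saccule formed groups of their own, and the utricle was pooled with the ampullae, so that a signal in the latter group cannot be assigned to either organ. Tissue around the ear (non-inner ear) was pooled from E9, from E9.5 to E10.5 and from E11 to E15. The numbers of tissues of E9.5, E10 and E10.5 in the E9.5 to E10.5 pools were 3, 14 and 4 in replicate 1 and 12, 6 and 6 in replicate 2. Pools are bulk tissue, in which fewer cells of a type and less RNA per cell cannot be told apart, and p-values reflect how pools from separate litters varied.

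Deposited array medians ran from 64.7 to 108, and 5.43 to 12% of the values of an array lay at the floor of 10. The 4 arrays of E11 had the largest shares at the floor, 9.81 to 12%, against at most 8.63% elsewhere. Replicate arrays correlated at 0.958 to 0.991. Summed tissue markers followed the labels. The summed signal of 5 of 5 epithelial markers (Epcam, Cdh1, Esrp1, Cldn7 and Ap1m2) was 2540 to 4530 on the 58 inner ear arrays and 180 to 568 on the 6 arrays of surrounding tissue. That of the 6 measured of 7 otic markers was 1070 to 1120 in the placode and 2870 to 22100 in the later ear, against 444 to 688 around the ear. Below, a signal is the quantile normalized array value, a difference is in log2(signal + 16), and a call needs an adjusted p below 0.05 and a difference of at least 1, both from limma over 14014 probe sets. Levels of different probe sets are not compared with each other. Against the surroundings, 2 of the 6 otic markers were called higher in the placode and 4 in the ear at E9.5 to E10.5. At E11 to E15 it was 4 in the cochlea and 3 in the vestibular tissues. Over all probe sets 2.94%, 3.64%, 7.79% and 8.65% were called higher, in that order. Pax8 and Dlx5 were called in none of these, with Pax8 at -0.22, -0.33 and -0.42 in those from E9.5 on.

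The chromosomal setting of the genes was read from RefSeq on the GRCm38.p6 mouse assembly. Irx3 lies on chromosome 8 between Fto and Irx5, and Irx5 lies between Irx3 and Irx6, followed by Mmp2. Meis1 lies on chromosome 11 and Meis2 on chromosome 2. The 250 bases upstream of the start were found for 3 of the 4 genes. Those of Meis2 (chr2:116064620-116064869, minus strand) and Irx3 (chr8:91801655-91801904, minus strand) are shown 5′ to 3′, as the genes with the largest opposed differences between cochlea and utricle; no letters are capitalised because no searched motif was found.
Meis2: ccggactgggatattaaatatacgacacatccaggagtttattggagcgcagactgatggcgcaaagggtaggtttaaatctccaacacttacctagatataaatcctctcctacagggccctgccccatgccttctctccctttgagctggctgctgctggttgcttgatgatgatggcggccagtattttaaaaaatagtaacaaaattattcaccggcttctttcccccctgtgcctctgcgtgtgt
Irx3: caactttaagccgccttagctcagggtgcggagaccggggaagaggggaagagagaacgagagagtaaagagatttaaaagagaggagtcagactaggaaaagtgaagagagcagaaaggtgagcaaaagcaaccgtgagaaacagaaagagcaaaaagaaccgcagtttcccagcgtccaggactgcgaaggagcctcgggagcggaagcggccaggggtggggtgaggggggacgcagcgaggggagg
Neither strand of these windows, nor of the Meis1 window (chr11:19018970-19019219, minus strand), held the Meis core TGACAG or the Iroquois half-site pair ACANNTGT. The motifs occurred in 15.9% and 6.31% of 32851 mouse promoter windows of the same length. The absence says only that these letters are not in these windows.

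Meis2 separated the cochlea from the vestibular side at the first stage at which both were taken. In the cochlea its signal was 102 and 97.4 at E10.5, 135 and 137 at E11, 102 and 118 at E11.5, and 65.6 and 52.8 at E12. In the vestibular primordium it was 240 and 235, 370 and 394, 426 and 504, and 471 and 443 at the same stages. No cochlear array reached the lowest vestibular array, and the log2 difference was -1.14 at E10.5 and -2.66 at E12. The difference over the 4 stages was -1.78 (SE 0.09, limma adjusted p = 5.95e-18). Meis1 was also lower on the cochlear side, with signals of 10 and 20.1 at E10.5, 54.4 and 49.1 at E11, 31.9 and 38.6 at E11.5, and 26.1 and 29.7 at E12. Its vestibular signals were 42.2 and 32, 123 and 113, 104 and 124, and 135 and 136. Within each stage the arrays did not overlap. The Meis1 difference was called at 2 of 4 stages, and at E10.5 (-0.79) and E11 (-0.99) it was not. Over the stages it was -1.23 (SE 0.1, limma adjusted p = 2.04e-12). Of the 4 genes, Meis1 and Meis2 were thus called lower in the cochlea, where 1.31% of all probe sets were called, 0.542% higher and 0.764% lower. With 64 in place of 16 added to the signal, the Meis1 difference was -0.74 and was not called.

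Neither Irx gene was called between cochlea and vestibular primordium. Irx3 signals were 963 and 567, 1050 and 787, 1080 and 1070, and 1240 and 1120 in the cochlea from E10.5 to E12. They were 769 and 594, 663 and 741, 872 and 723, and 898 and 630 in the vestibular primordium. The ranges overlapped at E10.5 only, but the difference over the stages was 0.39 (SE 0.17, limma adjusted p = 0.0854). Irx5 differed by 0.66 (SE 0.13, limma adjusted p = 0.000262), short of the size needed for a call, with cochlear signals of 116 to 262 and vestibular signals of 55 to 196.

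**Figure D1:**
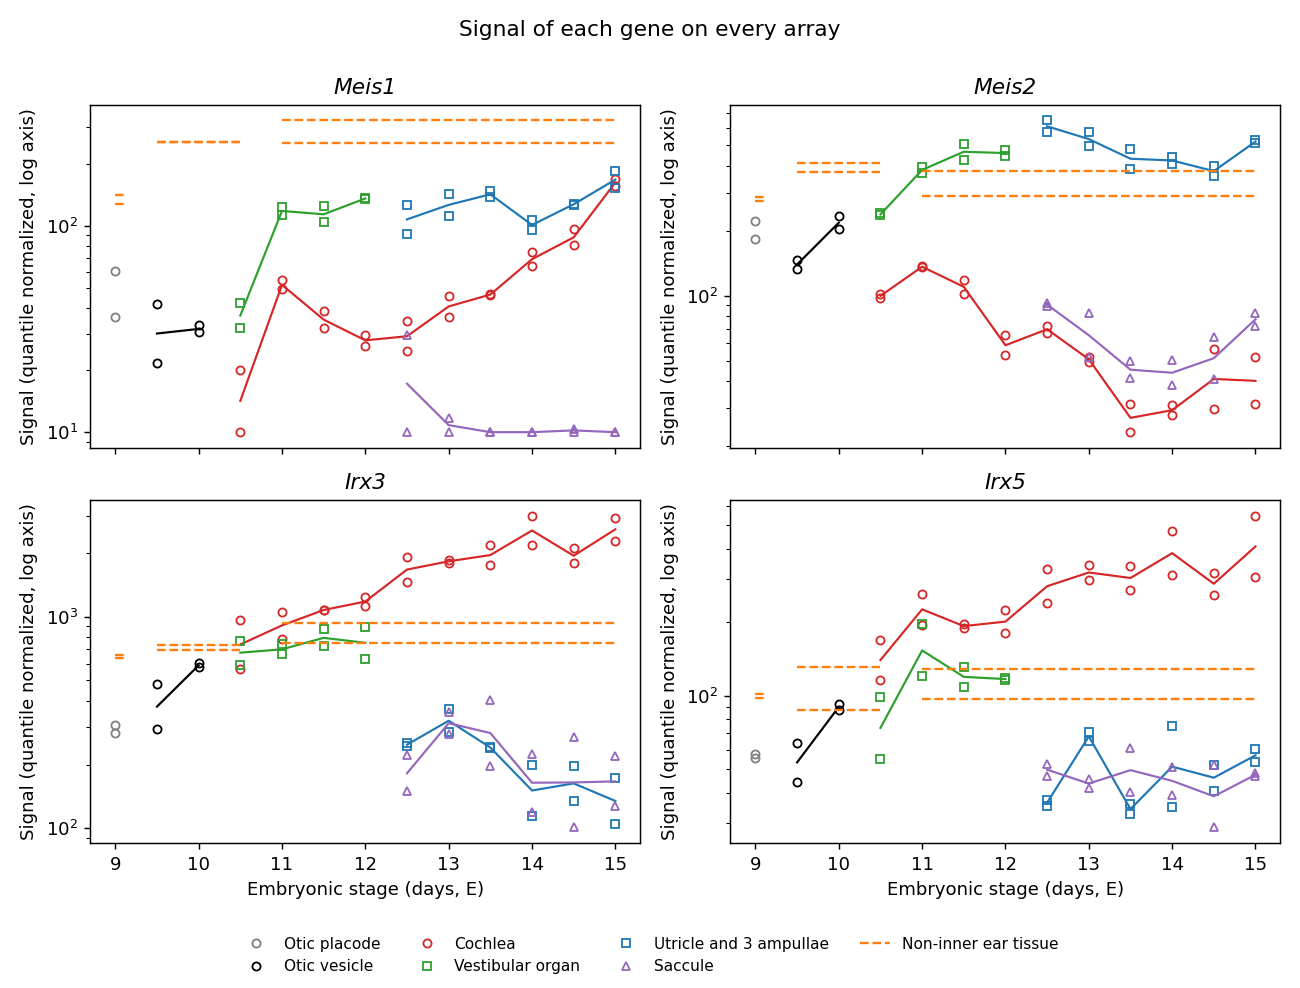
Quantile normalized signal of Meis1, Meis2, Irx3 and Irx5 (log axis) against embryonic stage in days. Each point is 1 array, lines join the means of the 2 arrays of a tissue, and surrounding tissue is drawn by its pool; Irx3 and Irx5 in the cochlea end above all vestibular organs and Meis1 in the saccule lies at or near the floor of 10.

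From E12.5 both Irx genes were higher in the cochlea than in either vestibular group. Irx3 in the cochlea was 1450 and 1920 at E12.5, 1790 and 1860 at E13, 1750 and 2180 at E13.5, 2170 and 3000 at E14, 2100 and 1790 at E14.5, and 2930 and 2280 at E15. In the utricle with ampullae it ran from 105 to 366 with a median of 220 over 12 arrays, and in the saccule from 101 to 404 with a median of 220. The lowest cochlear array was above the highest array of either vestibular group. Irx3 was higher by 3.26 than in the utricle with ampullae (SE 0.14, limma adjusted p = 2.79e-22), which is 9.55-fold, and by 3.23 than in the saccule (SE 0.14, limma adjusted p = 4.99e-22). The difference was called at 6 of 6 stages against either organ, from 2.44 to 4.1 against the utricle and from 2.48 to 3.82 against the saccule.

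Irx5, the neighbour of Irx3, showed the same order of organs. Its cochlear signals ran from 239 to 548 with a median of 316 over 12 arrays, those of the utricle with ampullae from 32.7 to 74.8 (median 46.4), and those of the saccule from 28.8 to 61.1 (median 46.8). Again the groups did not overlap. Irx5 was higher in the cochlea by 2.43 than in the utricle with ampullae (SE 0.11, limma adjusted p = 2.51e-21) and by 2.48 than in the saccule (SE 0.11, limma adjusted p = 1.55e-21), and was called at 6 of 6 stages in both comparisons. These comparisons share the cochlear arrays and are not independent of each other.

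Saccule and utricle did not differ detectably in either Irx gene. The saccule minus utricle difference was 0.03 for Irx3 (95% interval -0.24 to 0.31, limma adjusted p = 0.884) and -0.05 for Irx5 (95% interval -0.27 to 0.17, limma adjusted p = 0.729). The vestibular primordium had held more: Irx3 was 898 and 630 there at E12, against 253 and 244 in the utricle with ampullae and 221 and 150 in the saccule at E12.5. These groups hold different dissected parts, so the step is given as values and was not tested.

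The Meis genes split the vestibular organs. Meis2 in the utricle with ampullae was 648 and 570 at E12.5, 573 and 491 at E13, 386 and 479 at E13.5, 406 and 439 at E14, 398 and 357 at E14.5, and 508 and 525 at E15. In the saccule it was 92.2 and 89.3, 82.8 and 51.8, 49.8 and 41.3, 38.4 and 50.2, 64 and 41.1, and 83.2 and 72.4 at those stages. In the cochlea it ran from 23.3 to 72.5. No cochlear or saccular array came near the lowest utricle array. The difference from the utricle with ampullae was -3.09 in the cochlea (SE 0.08, limma adjusted p = 1.58e-29) and -2.68 in the saccule (SE 0.08, limma adjusted p = 6.62e-28), and both were called at 6 of 6 stages. Cochlea and saccule overlapped and differed by -0.41 (SE 0.08, limma adjusted p = 1.87e-05), which is below the size for a call.

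Meis1 had its lowest values in the saccule. The signals there were 10 and 29.5 at E12.5 and 11.7 and 10 at E13. At E13.5, E14 and E15 all 6 arrays were listed at the floor of 10, and at E14.5 the values were 10 and 10.4. The utricle with ampullae gave 91.4 to 184 with a median of 127 over 12 arrays. The groups did not overlap, and the difference was called at 6 of 6 stages, with a mean of -2.38 (SE 0.08, limma adjusted p = 7.86e-25); as 9 of 12 saccule arrays were at the floor, its size depends on the value added before the log. Cochlear Meis1 was above that of the saccule by 1.54 (SE 0.08, limma adjusted p = 1.26e-18), called at 5 of 6 stages, and the arrays overlapped at 1 of the 6 stages. With 64 added in place of 16 this difference was 0.79 and not called. Against the utricle with ampullae cochlear Meis1 was at -0.84 (SE 0.08, limma adjusted p = 5.24e-11), below the size for a call, and passed it with 1 added (-1.03) or without the E15 arrays (-1.01). It was called at 3 of 6 stages.

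Counted over the 4 genes, 2 were called higher and 1 lower in the cochlea than in the utricle with ampullae, where 2.9% of all probe sets were called, 1.16% higher and 1.75% lower. Against the saccule 3 were called higher in the cochlea (3.78% of all probe sets called, 1.76% higher and 2.03% lower). In the saccule against the utricle 2 were called lower (2.53% of all probe sets called, 1.09% higher and 1.44% lower). The groups also differed in markers of tissue around the ear. The summed signal of 8 of 8 hindbrain markers was 1690 to 3290 in the saccule. It was 542 to 1270 in the utricle with ampullae and 319 to 1010 in the cochlea from E12.5. Of these 8, only Fabp7 (2.48), Zic1 (1.23) and Zic5 (1.22) were called higher in the saccule than in the utricle with ampullae. The other 5 were not called, and the median over the list was 0.2. Fabp7 had mean saccule signals of 1360 at E12.5 and 2170 at E15. The summed signal of the 8 tested of 9 mesenchyme markers was 2040 to 3560 in the saccule and 1470 to 3440 in the utricle with ampullae. In the cochlea from E12.5 it was 2930 to 6260. No marker of either list was at the floor on all arrays of an organ. Of the 8 mesenchyme markers, Lum alone was called higher in the cochlea, by 3.91 against the saccule and 1.71 against the utricle with ampullae. Col1a1 (-1.21) and Pdgfra (-1.23) were called lower in the cochlea than in the saccule. The median difference of the 8 mesenchyme markers was -0.53 against the saccule and -0.15 against the utricle with ampullae. The part of such tissue in the differences of the 4 genes was not tested.

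**Figure D2:**
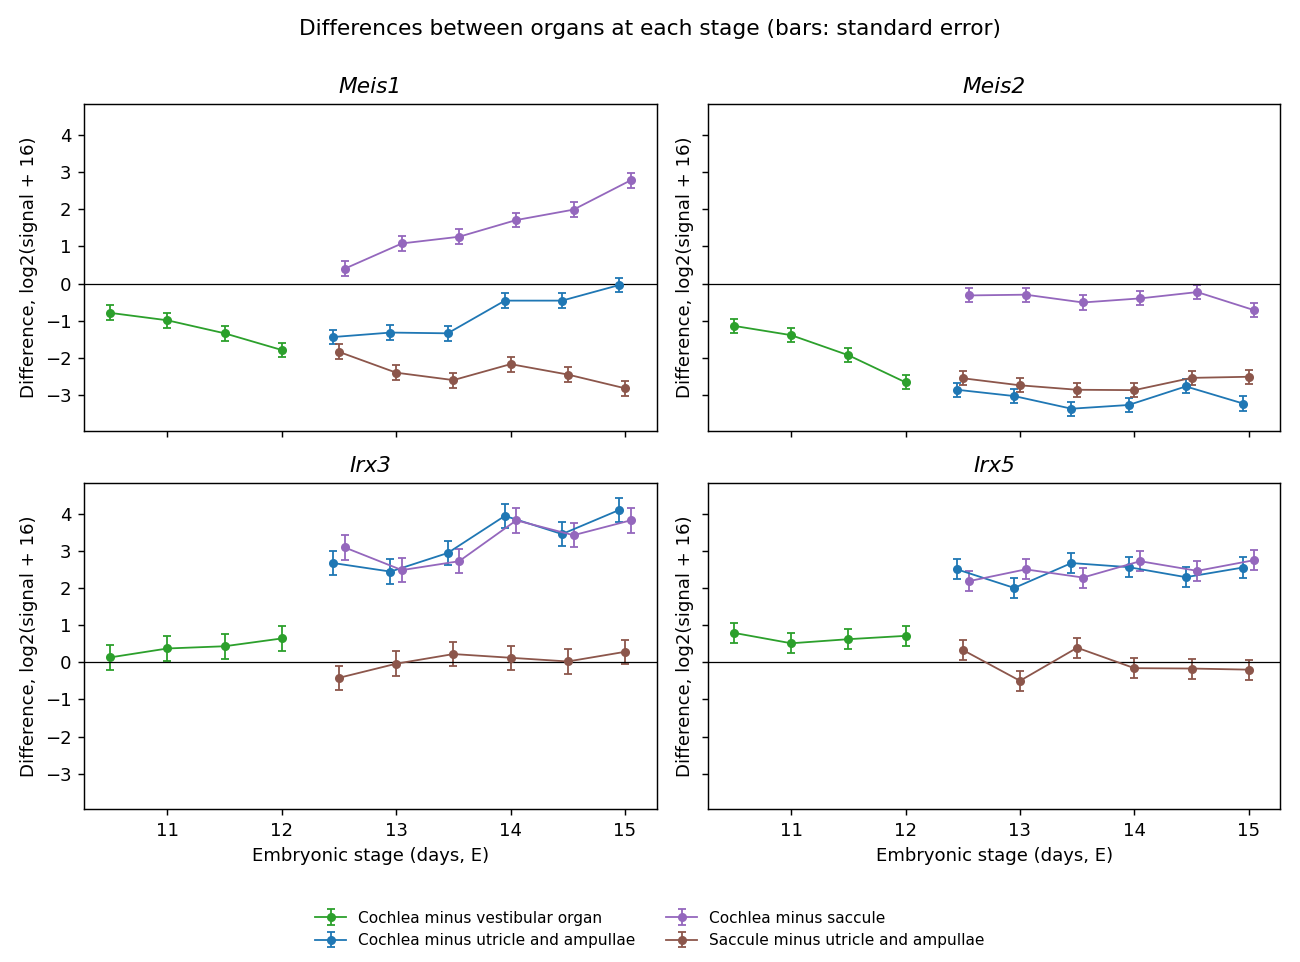
Differences between organs at each stage from E10.5 to E15 for the 4 genes, in log2(signal + 16). Bars are the standard error of the limma fit. Irx3 and Irx5 lie above 0 in the cochlea against either vestibular organ at 6 of 6 stages, and Meis2 lies below 0 in the cochlea and in the saccule against the utricle with ampullae at 6 of 6 stages.

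All 4 genes changed over time in the cochlea. Along a line fitted from E10.5 to E15, Irx3 rose by 1.75 log2 units (SE 0.23, limma adjusted p = 4.44e-08), Irx5 by 1.19 (SE 0.19, limma adjusted p = 9.1e-07) and Meis1 by 1.78 (SE 0.14, limma adjusted p = 1.38e-13). Meis2 fell by 1.59 (SE 0.13, limma adjusted p = 3.17e-13). These 4 calls of 4 compare with 15.5% of all probe sets called, 7.54% higher and 7.91% lower. The dispase step lasted longer from E11 on, and within E11 to E15 the Irx5 rise was 0.9, no longer called. It was 1.0, and not called, without replicate 1 of E15, and the Meis2 fall was -0.99, not called, with 64 added. From E10.5 to E12 alone none of the 4 was called (Meis1 0.35, Meis2 -0.64, Irx3 0.67, Irx5 0.37), with Meis2 and Irx3 at an unadjusted p below 0.05. Over these stages 1036 of all 14014 probe sets were called.

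Meis1 was the gene of the 4 that rose in the cochlea from E12.5 on. Its signals were 34.4 and 24.7 at E12.5, 45.6 and 36.2 at E13, 46.3 and 46.5 at E13.5, 74.6 and 63.5 at E14, 96.2 and 80.2 at E14.5, and 156 and 168 at E15. The E15 arrays were both above every earlier cochlear array. From E12.5 to E15 the fitted rise was 1.85 (SE 0.17, limma adjusted p = 3.7e-11), while Meis2 (-0.51), Irx3 (0.54) and Irx5 (0.35) were not called, against 6.17% of all probe sets called, 3.36% higher and 2.81% lower. The rise was larger than the change in the utricle with ampullae by 1.5 (SE 0.24, limma adjusted p = 4.35e-05), and larger than in the saccule by 2.15 (SE 0.24, limma adjusted p = 2.57e-08). By E15 cochlea and utricle overlapped in Meis1, at 156 and 168 against 152 and 184, after a gap of -1.44 at its widest stage. With 64 added, the difference in rise from the utricle was 0.92 and not called.

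The sum of the mesenchyme markers also rose, but of the 8 Lum alone was called higher from E12.5 to E15. Over all probe sets 3.36% were called higher, and the median change of the 8 was 0.13. The sums went from 2930 to 3350 at E12.5 to 5440 to 6260 at E15 in the cochlea. Most of that step was Lum, a matrix proteoglycan, whose mean signal was 1780 and then 4580. Around the ear at E11 to E15 Lum was 1880. Of the transcription factors in the list, Twist1 was 13.3 and then 11.7, Snai2 24.9 and 18.5, Pou3f4 20.2 and 13.8, and Prrx1 68.6 and 98.8. In the tissue around the ear at E11 to E15 they were 435, 540, 110 and 198. Col1a1, a fibrillar collagen, was 17.5 and then 48.2 in the cochlea and 3050 around the ear. Col1a2 was 185 and then 252 in the cochlea and 3140 around the ear. Pdgfra was 1030 and then 820 in the cochlea and 5380 around the ear. The part of mesenchyme in the rise was not tested.

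**Figure D3:**
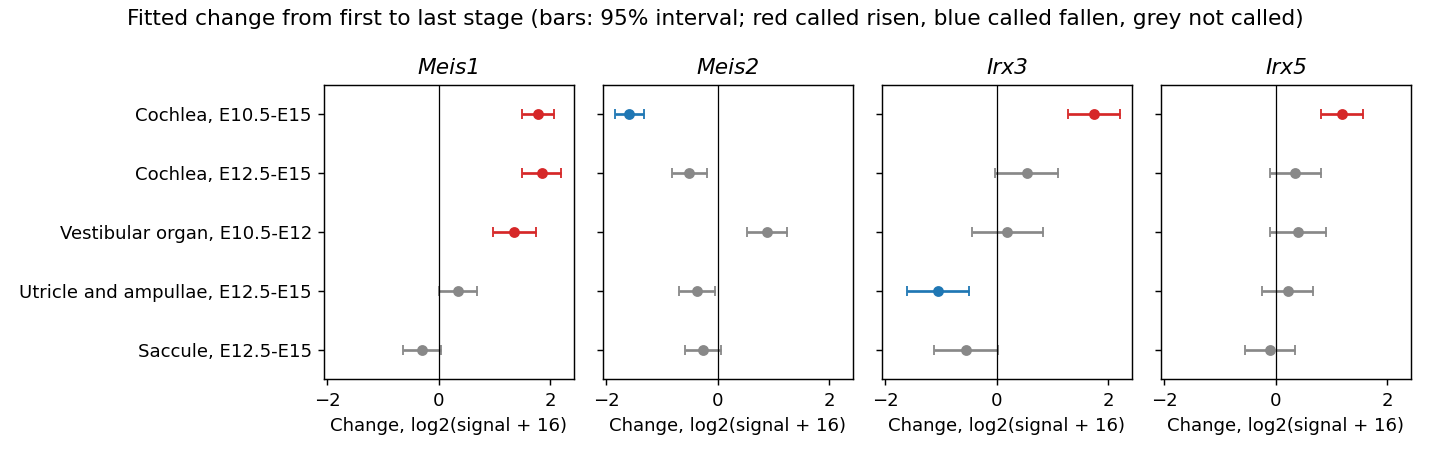
Fitted change of the 4 genes over the stages of each tissue, in log2(signal + 16) with the 95% interval of the limma fit. Meis1 rises by 1.85 in the cochlea from E12.5 to E15, and Irx3 falls by 1.06 in the utricle with ampullae.

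Irx3 also separated the organs over time. It fell in the utricle with ampullae from 253 and 244 at E12.5 through 284 and 366 at E13, 240 and 242 at E13.5, 114 and 200 at E14, and 135 and 197 at E14.5 to 105 and 173 at E15. All arrays from E14 on lay below all arrays up to E13.5, and the fitted fall was -1.06 (SE 0.28, limma adjusted p = 0.00369). Of the 4 genes 1, Irx3, was called there (7.59% of all probe sets called, 4.74% higher and 2.85% lower). The fall was not called without E13 replicate 2 (-0.98), E14.5 replicate 1 (-0.95) or E15 replicate 1 (-0.83), nor with 64 added (-0.86) or without the E15 arrays (-0.85). The cochlear change in Irx3 exceeded that of the utricle by 1.6 (SE 0.4, limma adjusted p = 0.00833), so that 2 of the 4 genes, Irx3 and Meis1, were called for a difference between the organs in their change over time (4.05% of all probe sets called, 2.08% higher and 1.97% lower). Without E15 replicate 1 of the utricle the Irx3 difference was 1.37 with a limma adjusted p of 0.0566, and without all E15 arrays 1.22 with 0.127.

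Against the saccule the difference in Irx3 change was 1.09 (SE 0.4, limma adjusted p = 0.0723), and 1 of the 4 genes, Meis1, was called (4.84% of all probe sets called, 2.01% higher and 2.83% lower). It was called without saccule E13.5 replicate 2 (1.16), E14.5 replicate 1 (1.36) or E15 replicate 2 (1.34). Within the saccule itself 0 of the 4 genes were called over E12.5 to E15 by limma (7.08% of all probe sets called, 4.45% higher and 2.63% lower), and 0 had an unadjusted p below 0.05. In the vestibular primordium from E10.5 to E12, Meis1 rose by 1.36 (SE 0.19, limma adjusted p = 2.25e-06) and was the 1 gene called (4.07% of all probe sets called, 2.11% higher and 1.96% lower). That rise lay between E10.5 and E11, where the dispase time also changed: from E11 to E12 it was 0.18 (limma adjusted p = 0.611). Meis1 at E11 was above the mean of its neighbouring stages by 0.77 in the cochlea and by 0.7 in the vestibular primordium, at the stage with the largest shares of values at the floor. With 64 added the vestibular rise was 0.88, not called, and Meis2 rose by 0.89 (SE 0.18, limma adjusted p = 0.000394), below the size for a call, or by 1.02 on the values as deposited, which was called.

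From E9.5 on, the tissue around the ear gave the highest Meis1 signals of the 32 groups. Its signals were 128 and 141 at E9, 255 and 255 at E9.5 to E10.5, and 324 and 251 at E11 to E15. At E9 the placode gave 60.6 and 36, and the difference was -1.25 (SE 0.2, limma adjusted p = 1.7e-05). Irx3 was 282 and 309 in the placode and 635 and 659 around it, a difference of -1.09 (SE 0.33, limma adjusted p = 0.0156). Neither gene overlapped between the tissues. Meis2 (222 and 182 against 285 and 274) and Irx5 (57.7 and 55.4 against 98.2 and 102) did not overlap either, but were not called, with -0.45 and -0.68. The 2 calls compare with 6.04% of all probe sets called, 2.94% higher and 3.1% lower.

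Both placode calls rested on the settings. On the values as deposited, where the median difference over all probe sets was 0.35, the difference was -0.84 for Meis1 and -0.69 for Irx3, and with 64 added it was -0.83 and -0.99. None of these was called. The Irx3 call was also lost without any 1 of the 4 arrays (limma adjusted p of 0.0536 to 0.103), and that of Meis1 without placode replicate 2 (-0.97).

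At E9.5 to E10.5 the ear gave Meis1 signals of 10 to 42.2 with a median of 31.2 over 8 arrays, against 255 and 255 around it. The difference was -2.6 (SE 0.16, limma adjusted p = 3.12e-16). Meis2 ran from 97.4 to 240 in the ear and was 373 and 412 around it, a difference of -1.15 (SE 0.15, limma adjusted p = 7.42e-08). The ear did not overlap the surrounding tissue in either Meis gene. These were the 2 calls of 4 (8.09% of all probe sets called, 3.64% higher and 4.45% lower); Irx3 (-0.39) and Irx5 (-0.36) overlapped. On the values as deposited, with a median difference of 0.34 over all probe sets, Meis2 was at -0.77 and not called, and with 64 added it was at -0.97 and not called.

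At E11 to E15 the cochlea and the vestibular tissues differed from their surroundings in different members. In 18 cochlear arrays Meis1 was lower (-2.11, SE 0.15, limma adjusted p = 5.93e-15) and Meis2 lower (-2.27, SE 0.14, limma adjusted p = 6.35e-17), while Irx5 was higher by 1.22 (SE 0.2, limma adjusted p = 2.42e-06). Irx5 was 181 to 548 in the cochlea and 129 and 96.8 around it, with no overlap. Irx3 was higher by 0.96 (SE 0.25, limma adjusted p = 0.00131), just below the size for a call, and overlapped. It passed at 1.15 on the values as deposited, at 1.07 without the E11 arrays and at 1.12 without replicate 2 of the surrounding tissue, and the Irx5 call was lost with 64 added (0.98). So 1 gene was called higher and 2 lower (14.6% of all probe sets called, 7.79% higher and 6.85% lower).

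In 30 vestibular arrays Meis1 was lower than in the surrounding tissue (-1.89, SE 0.15, limma adjusted p = 1.05e-13) and Irx3 likewise (-1.36, SE 0.24, limma adjusted p = 1.15e-05), the 2 calls of 4 (15.9% of all probe sets called, 8.65% higher and 7.21% lower). Vestibular Irx3 ran from 101 to 898 and overlapped the 750 and 932 around the ear. Meis2 was -0.43 and Irx5 -0.63, both below the size for a call. From E12.5 this comparison averages the utricle with ampullae and the saccule, which differed in both Meis genes. Meis2 was 357 to 648 in the utricle with ampullae, 38.4 to 92.2 in the saccule and 289 to 379 around the ear. Meis1 was 91.4 to 184, 10 to 29.5 and 251 to 324 in the same order. Within the surrounding tissue Meis1 was higher at E11 to E15 than at E9 by 1.0 (SE 0.2, limma adjusted p = 7.94e-05), the 1 call of 4 (20.8% of all probe sets called). It was lost with 64 added (0.82), without E9 replicate 1 (0.94) and without E11 to E15 replicate 1 (0.83). The dispase time also changed between these pools, so age and dispase time cannot be told apart here.

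Markers of other tissues differed between ear and surroundings as well. At E9 the summed mesenchyme markers were 1070 to 1730 in the placode and 3440 to 3730 around it, and the summed hindbrain markers 903 to 925 and 6060 to 6960. At E11 to E15 they were 1470 to 6260 and 319 to 3290 in the ear and 14200 to 15300 and 11100 to 11800 around it. The part of these tissues in the differences was not tested.

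**Figure D4:**
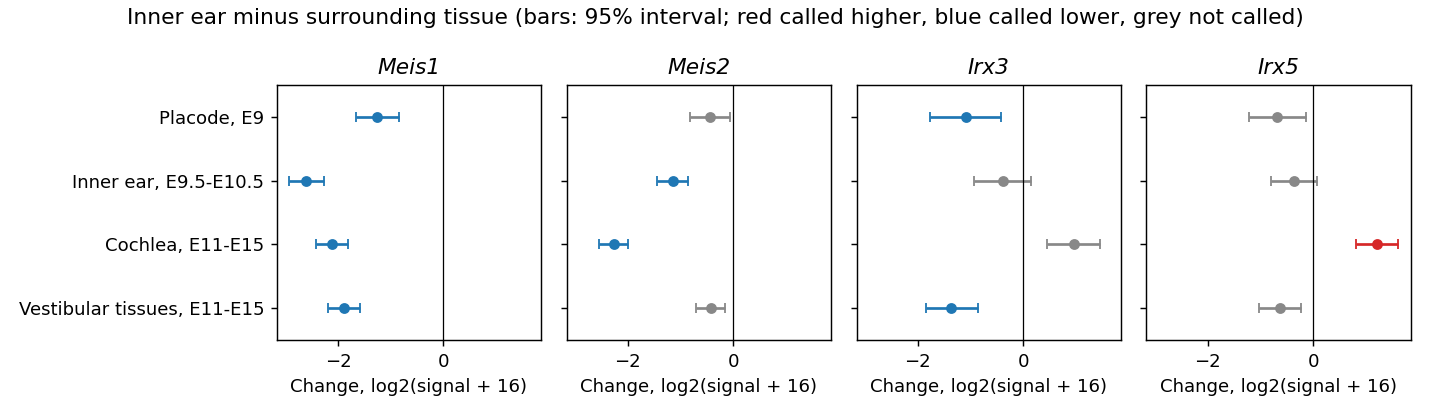
Differences of the 4 genes, inner ear minus surrounding tissue, at E9, at E9.5 to E10.5 and at E11 to E15, in log2 units. Bars are the 95% interval of the limma fit. Meis1 lies lower in the ear than around it in all 3 windows, and Irx5 in the cochlea lies above the surrounding tissue at E11 to E15.

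Between the placode and the vesicle at E10, 0 of the 4 genes were called by limma (5.42% of all probe sets called, 3.53% higher and 1.9% lower), and 2 had an unadjusted p below 0.05. Irx3 was 479 and 295 at E9.5 and 576 and 602 at E10, after 282 and 309 in the placode, a difference of 0.96 to E10 (SE 0.33, limma adjusted p = 0.0326). Irx5 was 64.1 and 44.3 and then 92.7 and 87.3, after 57.7 and 55.4 (0.55, limma adjusted p = 0.136). For both, the E10 arrays were above the placode arrays.

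Ordered by mean signal over the 32 groups, Meis1 ran from 10 in the saccule at E15 to 288 in the surrounding tissue of E11 to E15, and the highest ear groups were the utricle with ampullae and the cochlea at E15, at 168 and 162. Meis2 ran from 27.4 in the cochlea at E13.5 to 609 in the utricle with ampullae at E12.5. Irx3 ran from 139 in the utricle with ampullae at E15 to 2600 in the cochlea at E15, and Irx5 from 34.3 in the utricle with ampullae at E13.5 to 427 in the cochlea at E15. Most neighbours in these orders had overlapping arrays: 25 of 31 pairs for Meis1, 22 for Meis2, 24 for Irx3 and 29 for Irx5. The top 6 groups of both Irx genes were the cochlea at the 6 stages from E12.5 to E15.

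Across the 29 ear groups, the gene most like Irx3 in its group means was Irx5, and the reverse (Pearson r = 0.954). Next for both was Gata3, a zinc finger factor that the cochlea needs, at 0.936 for Irx3 and 0.932 for Irx5. Cyp26a1, an enzyme that degrades retinoic acid, followed for Irx3 at 0.916, and Itih5 and Fst, which encodes the activin and BMP antagonist follistatin, for Irx5 at 0.928 and 0.913. For Meis1 the leading genes were Fn1 (fibronectin, 0.884), Sdc2 (a syndecan, 0.875), Gstm2 (0.859), Dlx1 (0.851) and Lrp2 (the endocytic receptor megalin, 0.85). For Meis2 they were Lmo4 (a LIM-only factor, 0.899), Bub3 (0.898), Krt7 (a keratin, 0.886), Gm20559 (0.88) and Vnn1 (0.875). Meis1 and Meis2 correlated at 0.63 over all ear groups but at -0.5 over the 10 cochlear groups, while Irx3 and Irx5 stood at 0.95 and 0.96. The groups share dissection and stage, and these values are descriptions.

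Of 14 other TALE genes listed, 12 had a probe set with their symbol alone and 9 were tested. In the cochlea against the utricle with ampullae 1 of the 9 was called, Irx1, higher by 1.04 (SE 0.08, limma adjusted p = 1.09e-14). Over all probe sets 2.9% were called there. Against the saccule none was called by limma, though 6 of 9 had an unadjusted p below 0.05, and none was called in the cochlea against the vestibular primordium (4 of 9) or the saccule against the utricle (4 of 9). The shares called over all probe sets were 3.78%, 1.31% and 2.53%, in that order. Meis3, the third Meis gene, was lower in the ear than around it at E9 (-1.43, limma adjusted p = 0.0146) and at E9.5 to E10.5 (-1.46, limma adjusted p = 0.00105). It fell by 1.79 log2 units in the vestibular primordium from E10.5 to E12, across the change in dispase time (limma adjusted p = 0.0019). It then rose by 1.28 in the utricle with ampullae (limma adjusted p = 0.00628). Irx2 rose by 1.4 in the saccule from E12.5 to E15 (limma adjusted p = 1.24e-13).

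Of 8 genes listed for the stretch of chromosome 8 around Irx3 and Irx5, 5 were tested. None was called in the cochlea against the utricle with ampullae or the saccule by limma, though 3 of 5 and 4 of 5 had an unadjusted p below 0.05. Over all probe sets 2.9% and 3.78% were called. Irx6, the next Irx gene, was higher in the cochlea by 0.55 (SE 0.09, limma adjusted p = 2.79e-06) than in the utricle with ampullae and by 0.91 (SE 0.09, limma adjusted p = 2.03e-11) than in the saccule, below the size for a call. Fto, on the other side, was at 0.23 and 0.33 in the same direction (limma adjusted p = 0.0456 and 0.00171), and Mmp2, a matrix protease, at 0.73 and -0.18. Over time Mmp2 rose in the cochlea by 1.92 from E10.5 to E15 (limma adjusted p = 1.62e-16), in the utricle by 1.62 and in the saccule by 1.49.

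Retinoic acid genes parted between the same organs. Of 15 listed, 10 were tested. In the cochlea against the utricle with ampullae, 3 were called higher and 4 lower. In the cochlea against the saccule 3 were called higher and 3 lower, and in the saccule against the utricle 1 higher and 2 lower. Over all probe sets, 2.9%, 3.78% and 2.53% were called in these comparisons, in that order. Cyp26a1 was higher in the cochlea by 4.11 (SE 0.14, limma adjusted p = 1.71e-25) than in the utricle with ampullae and by 4.31 than in the saccule. The synthetic enzymes Aldh1a1 (-2.63), Aldh1a2 (-2.95) and Aldh1a3 (-2.8) were lower in the cochlea than in the utricle with ampullae. Aldh1a1 (-2.87) and Aldh1a2 (-3.45) were also lower in the saccule than in the utricle, while Rarb, a retinoic acid receptor, was higher there (1.28) and Aldh1a3 was at 0.23 and not called. In the cochlea against the saccule Aldh1a3 (-3.03), Rarb (-2.25) and Rdh10 (-1.48) were the genes called lower. In the cochlea against the vestibular primordium, where the Meis genes had already parted, 1 was called higher, Cyp26a1 by 1.47, and 5 lower, among them Aldh1a2 (-2.24) and Aldh1a3 (-1.9). There 1.31% of all probe sets were called. The list mixes synthesis with degradation: its median difference between cochlea and utricle was -0.68, against 0.01 over all probe sets. The medians of the other TALE genes and of the genes near Irx3 and Irx5 in that comparison were 0.09 and 0.23.

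**Figure D5:**
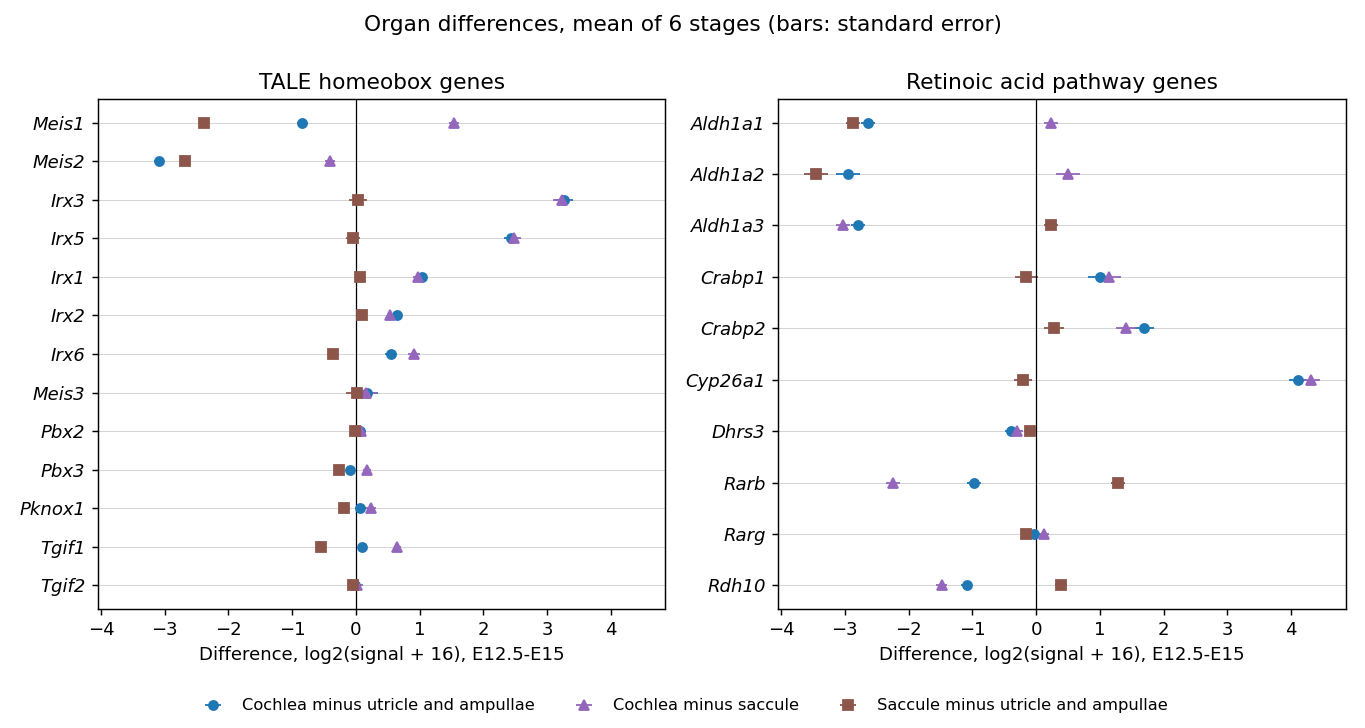
Differences between organs of the 4 genes beside the other tested TALE genes and the tested retinoic acid genes, in log2(signal + 16). Among the TALE genes that are not Meis1, Meis2, Irx3 or Irx5, Irx1 alone reaches a call, at 1.04 in the cochlea against the utricle with ampullae.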

How the data were processed

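RNA of 64 pools was labelled as biotinylated cRNA and hybridized to 1 Affymetrix array each. Per the submitters' processing notes, the authors used MAS5 to obtain the deposited values, which are intensities on a linear scale with a floor of 10; the sources used here give neither its version nor its scaling target. Of 22626 probe sets, 20380 have 1 gene symbol, 691 several and 1555 none in the platform annotation. Arrays were quantile normalized, 16 was added, log2 was taken, and probe sets with 1 symbol and at least 2 arrays at or above their array's median were kept (14014). A model of the 32 group means was fitted with limma 3.58.1 (R 4.3.3) on all 64 arrays, with p-values adjusted over all probe sets (Benjamini-Hochberg). Fits were tested on data simulated with independent normal noise around the group means. That simulation held no floor and no link between same-numbered arrays, so it does not cover either. The number of arrays limits the precision.

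The named genes are the 4 members, the 5 genes most like each, and up to 4 called genes of each list with the largest change; Irx6, Fto and Mmp2 in the organ comparisons were named after their values were seen. Members and lists were chosen with earlier results of these data known. The shares over all probe sets beside their counts therefore give scale only and are no test of the members or lists. The values as deposited, other added constants, filters, samples and a replicate block were tried. Deviations of same-numbered cochlea and utricle arrays correlated at 0.25 to 0.49 at 6 of 6 stages, so the numbers were taken to pair these groups. The main fit held no replicate block, so the standard errors and p-values of the main results do not use this pairing. For cochlea and saccule (-0.49 to 0.57) and saccule and utricle (-0.34 to 0.5), 5 of 6 stages passed 0.1, and E15 was negative. For cochlea and vestibular primordium (-0.02 to 0.19), 2 of 4 stages passed. As not every stage passed, the numbers were not taken as pairs in these groups.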

Additional observations from a re-analysis of the deposited data

Results flagged for a closer look

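A difference between organs in the change over time, tested as an interaction, marked 3 results. The rise of Meis1 from E12.5 to E15 was larger in the cochlea than in the utricle with ampullae by 1.5 log2 units (SE 0.24, limma adjusted p = 4.35e-05). It was larger in the cochlea than in the saccule by 2.15 (SE 0.24, limma adjusted p = 2.57e-08), where 9 of the 12 saccule arrays were at the floor of 10 and could not fall further. The change of Irx3 was higher in the cochlea than in the utricle with ampullae by 1.6 (SE 0.4, limma adjusted p = 0.00833), and this rested on the E15 arrays, without which it was 1.22 with a limma adjusted p of 0.127.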

How the results depend on the processing

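Over 736 values of the 4 genes under other settings, 708 kept their direction and their side of the threshold, 22 kept the direction and lost the call, 6 gained one and 0 reversed; leaving out 1 array kept 1080 of 1096. With 64 added, the number of the 4 genes called was 0 at E9 against the surroundings, 1 at E9.5 to E10.5, 1 in the cochlea against the vestibular primordium, 0 for the vestibular and 0 for the utricle trend, 1 for the cochlea minus utricle trend and 0 for the surroundings over time. On the values as deposited it was 0 at E9, 1 at E9.5 to E10.5 and 2 for the vestibular trend. It was 0 for the vestibular trend within E11 to E15, 0 for the cochlear trend from E10.5 to E12 alone, and, without the E15 arrays, 0 for the utricle trend and 1 for the cochlea minus utricle trend; the E10.5 to E12 and E15 settings were chosen after seeing the data. The cause was not tested. Leaving out 1 array gave 0 to 1 at E9, 0 to 1 for the utricle trend, 1 to 2 for the cochlea minus utricle trend, 1 to 2 for the cochlea minus saccule trend and 0 to 1 for the surroundings.

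With the replicate number as a block, 2 genes were called for the cochlea minus saccule trend, with Irx3 at 1.09 (limma adjusted p = 0.0403), although same-numbered cochlea and saccule arrays deviated in opposite directions at E15 (correlation -0.49); the block changed no other call of the 4 genes. As deposited, the share of called probe sets that were higher went from 48.7 to 88.8% at E9, 45 to 76% at E9.5 to E10.5, 54.5 to 71.6% in vestibular tissue against its surroundings, 41.5 to 12.8% in the cochlea against the vestibular primordium, 48.8 to 61.9% for the cochlear and 51.9 to 68.3% for the vestibular trend, with median shifts of 0.35, 0.34, 0.19, -0.26, 0.2 and 0.12. Values at the floor, as for Meis1 in the saccule, have no order and limit what its differences can show. Counts over all probe sets moved by over 1.5 times too. With 64 added they went from 846 to 412 at E9, 1134 to 629 at E9.5 to E10.5, 2051 to 1323 and 2222 to 1385 for cochlea and vestibular tissue against the surroundings, 760 to 354 from placode to vesicle, 183 to 86 against the vestibular primordium, 407 to 251, 530 to 285 and 355 to 203 between the later organs, 2166 to 1367, 865 to 527, 570 to 287, 1063 to 607 and 992 to 588 for the trends of cochlea (long and short), vestibular primordium, utricle and saccule, 568 to 364 and 678 to 397 for their differences, and 2919 to 1935 for the surroundings. With 1 added the vestibular primordium comparison gave 306, and as deposited 298, with 1609 at E9. With 1 probe set per gene, where fewer were tested, they fell to 555 at E9, 495 from placode to vesicle, 353 for cochlea against saccule, 361 for the cochlea minus utricle trend, 1398, 376 and 704 for the trends of the long cochlea, vestibular primordium and utricle, and 1841 for the surroundings. On its own groups alone, placode to vesicle gave 420. Without E15 the short cochlear, saccule and both difference trends gave 404, 580, 213 and 232. The long cochlear trend gave 1036 from E10.5 to E12 and the vestibular one 325 within E11 to E15. The cochlea minus utricle trend gave 363 to 974 without 1 array.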
